A study of Mus musculus with 6 samples.

Results

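Resident macrophages of adipose tissue line its small vessels and are told apart from recruited monocytes and lipid-laden macrophages by a shared set of genes. The 10 genes described here, *Mrc1*, *Cd163*, *Folr2*, *Lyve1*, *F13a1*, *Timd4*, *Cbr2*, *Pf4*, *Stab1* and *Gas6*, were chosen by name as genes of such perivascular macrophages, and all 10 were found among the 37384 gene symbols of the count table. RNA came from cells of inguinal subcutaneous white adipose tissue (scWAT) that floated after collagenase digestion, taken from male mice at postnatal day 7 (P7). L1L2-FF littermates carried the genotype Lats1f/fLats2f/f, in which *Lats1* and *Lats2* carry loxP sites and are left whole. Their products are the Hippo pathway kinases that phosphorylate the downstream coactivators YAP and TAZ. L1L2-AKO mice carried the same floxed alleles together with AdipoqCre, a Cre recombinase under the promoter of the adipocyte gene *Adipoq*. There were 3 libraries of each genotype, and each was made from a pool of 4 mice. The p-values below thus rest on the spread between pools, which the edgeR fits estimate partly across genes. Because Cre is driven in adipocytes, the macrophages of these mice are not the cells in which the floxed alleles were meant to recombine, and because the cells were gathered by flotation and not by sorting, the libraries can hold RNA of other cells that stay attached to fat cells.

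Total counts per library lay between 30548473 and 32107917. *Lats1* was lower in the libraries labelled L1L2-AKO, at 40.2 ± 1.16 CPM (counts per 1000000 counts of the library, with TMM factors) against 82.9 ± 9.90 in L1L2-FF (SD, n = 3 libraries each, edgeR adjusted p = 0.00131), whereas *Lats2* was higher, at 119 ± 20.6 against 76.4 ± 8.68 CPM (adjusted p = 0.0278), which goes against the label and held in 2 of the 6 omissions of a single library. How many of the counts come from the floxed exons was not examined, and the directions below are those of the labels. Markers of the labelled cell type were abundant in both genotypes, with a sum over 8 mature adipocyte markers of 19380 to 21400 CPM in L1L2-FF and 11350 to 13740 CPM in the libraries labelled L1L2-AKO. Among them *Fabp4*, the fatty acid carrier, stood at 8164 and 6610 CPM, and *Cfd*, the adipokine adipsin, at 3718 and 211 CPM. In the principal components of the 6 libraries, L1L2-FF replicates 2 and 3 lay farthest apart on the second axis (17.2% of the variance), the first axis (61.8%) separating the genotypes.

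The 10 genes divide by what their products do. *Mrc1* (the mannose receptor CD206), *Cd163* (the receptor for haemoglobin bound to haptoglobin) and *Stab1* (stabilin-1) encode scavenger receptors. *Folr2* (folate receptor beta), *Lyve1* (a hyaluronan receptor) and *Timd4* (TIM-4, a receptor for phosphatidylserine on dying cells) are the surface receptors by which long-lived, self-maintaining macrophages are recognised in many tissues. *Gas6* (the ligand that bridges phosphatidylserine to the TAM receptors AXL, MERTK and TYRO3), *Pf4* (the chemokine CXCL4) and *F13a1* (the catalytic A subunit of coagulation factor XIII, which crosslinks fibrin and matrix proteins) encode secreted or released proteins, and *Cbr2* encodes a carbonyl reductase. Several are shared with other cells. *Lyve1* and *Stab1* are also made by lymphatic and sinusoidal endothelium, *Pf4* by megakaryocytes and platelets, and *Gas6* by many stromal cells.

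The upstream sequences of the members show what letters their starts share and where they differ. RefSeq start sites (GRCm38.p6, the assembly also called mm10) were at hand for 9 of the 10 genes, with 11 windows in all, and not for *Lyve1*. The 250 bases before the start are given 5′ to 3′ on the strand of the gene for *Mrc1* (chr2:14229164-14229413, plus strand), *F13a1* (the upstream start, chr13:37050245-37050494, minus strand), *Gas6* (chr8:13494536-13494785, minus strand) and *Timd4* (chr11:46810549-46810798, plus strand), which are the 3 members with the firmest change below and the least abundant member. Capitals mark the purine-rich core GAGGAA or its reverse complement TTCCTC, the PU box bound by the macrophage factor PU.1.
*Mrc1* promoter: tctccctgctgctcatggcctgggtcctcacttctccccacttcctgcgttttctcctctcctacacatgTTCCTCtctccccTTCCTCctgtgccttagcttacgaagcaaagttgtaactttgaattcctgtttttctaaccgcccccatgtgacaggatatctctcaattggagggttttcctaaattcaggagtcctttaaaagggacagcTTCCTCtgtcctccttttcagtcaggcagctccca
*F13a1* promoter: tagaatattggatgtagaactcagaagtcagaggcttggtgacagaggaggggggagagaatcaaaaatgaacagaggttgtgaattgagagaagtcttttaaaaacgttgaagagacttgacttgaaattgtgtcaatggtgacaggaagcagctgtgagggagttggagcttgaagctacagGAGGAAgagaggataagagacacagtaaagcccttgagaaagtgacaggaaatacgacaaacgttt
*Gas6* promoter: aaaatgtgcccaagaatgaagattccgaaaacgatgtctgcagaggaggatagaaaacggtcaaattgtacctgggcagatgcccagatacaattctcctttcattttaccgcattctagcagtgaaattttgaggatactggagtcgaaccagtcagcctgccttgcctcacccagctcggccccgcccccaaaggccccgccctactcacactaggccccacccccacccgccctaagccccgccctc
*Timd4* promoter: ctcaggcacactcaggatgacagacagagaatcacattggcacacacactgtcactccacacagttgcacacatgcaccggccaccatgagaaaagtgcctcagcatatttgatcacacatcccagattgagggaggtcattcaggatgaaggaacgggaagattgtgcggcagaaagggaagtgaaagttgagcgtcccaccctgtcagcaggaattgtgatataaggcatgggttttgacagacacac
Searched on both strands from 250 bases before to 50 bases after the start, the PU box letters were found in 6 of the 11 member windows, beside 28.3% of 32851 promoters in the same table. In *Mrc1* they stood at positions -180, -167 and -35 relative to the start, and in *Stab1* at -30. They were not in the windows of *Gas6* and *Timd4*, which says only that these letters are not there. The letters TGCTGA, part of the site of MAF factors, were in 5 windows (19.5% of all promoters), those of both *Folr2* starts, *Timd4*, *Cbr2* and *Stab1*. The letters GGAATG, the core bound by the TEAD partners of YAP and TAZ, were in 0 of the 11 windows, with 14.7% of all promoters holding them. No match overlapped another in the member windows, and a match is a run of letters and not a site at which binding was measured.

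Of the 10 genes, 7 had higher levels in the libraries labelled L1L2-AKO and 0 had lower levels (edgeR quasi-likelihood test with Benjamini-Hochberg adjustment over 15674 genes, threshold 0.05), beside 9.28% of all tested genes called higher and 7.18% called lower. At an unadjusted p under 0.05, 8 were higher and 0 lower, beside 15.5% and 15.3% of all tested genes. The DESeq2 Wald test also called 7 higher and 0 lower, beside 10.5% and 8.56% of the genes it tested. All 10 passed the filter on low counts. *Gas6* rose the most, from 31.3 ± 11.3 to 228 ± 87.4 CPM, followed by *Mrc1*, from 71.5 ± 23.6 to 256 ± 28.1 CPM. *Folr2*, *Lyve1* and *Timd4* did not pass the threshold, and their log2 fold changes of 0.59, 0.48 and 0.45 were the smallest of the 10. In 8 of the 10 genes every library labelled L1L2-AKO lay above every L1L2-FF library, which was so for 18.0% of all tested genes. The median log2 fold change of the 10 was 1.03, and that of all tested genes -0.02. In libraries of mixed cells, more cells of a type and more RNA per cell cannot be told apart. Summed over 16 pan-macrophage markers the level was 250 to 478 CPM in L1L2-FF and 895 to 986 CPM in the libraries labelled L1L2-AKO, and the part of this in the members' change was not tested beyond the scaling given below.

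**Figure D1:**
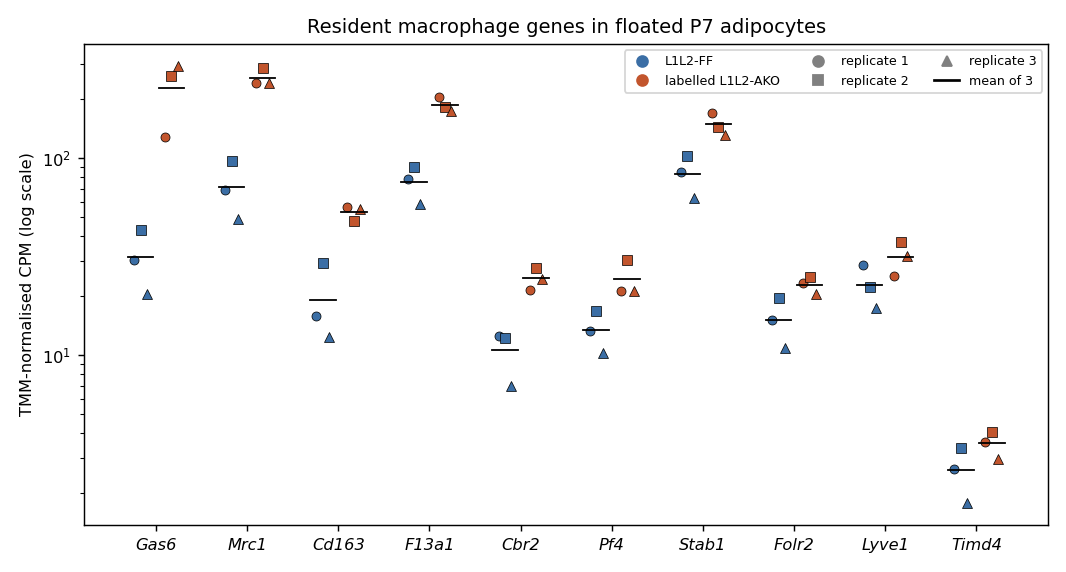
TMM-normalised CPM of the 10 genes in each of the 6 libraries on a log scale, with L1L2-FF in blue, libraries labelled L1L2-AKO in orange, replicate numbers as symbols and the mean of 3 libraries as a line. For *Folr2* and the 7 genes left of it the groups do not overlap, for *Lyve1* and *Timd4* they do, and L1L2-FF replicate 3 is the lowest library of its genotype in all 10.

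Among the scavenger receptors, *Mrc1* (ENSMUSG00000026712, chr2:14229392-14332057) was at 68.8, 96.3 and 49.3 CPM in L1L2-FF replicates 1, 2 and 3 and at 239, 288 and 240 CPM in the libraries labelled L1L2-AKO. Every library of the second group was above every library of the first, and replicate 2 was the highest of both groups. The log2 fold change was 1.84 ± 0.23 (SE, adjusted p = 0.00213), a 3.58-fold difference in level, and 2.50% of all tested genes had a larger log2 fold change. *Mrc1* passed the threshold without any single library, with adjusted p-values up to 0.0167. *Cd163* (chr6:124304656-124330527) was at 15.7, 29.3 and 12.3 CPM in L1L2-FF and at 56.4, 48.0 and 55.1 CPM in the libraries labelled L1L2-AKO. L1L2-FF replicate 2 stood above the other two libraries of its genotype, still below all of the other group. Its log2 fold change of 1.48 ± 0.29 (adjusted p = 0.0122) no longer passed without L1L2-FF replicate 1 (1.35, adjusted p = 0.0592). *Stab1* (chr14:31139013-31168641) was at 85.5, 102 and 62.6 CPM and at 170, 144 and 131 CPM. The groups did not overlap, but the gap between them was smaller than the range within either. Its log2 fold change was 0.83 ± 0.19 (adjusted p = 0.0229), and it missed the threshold without L1L2-FF replicate 1 (adjusted p = 0.0835), without the library labelled L1L2-AKO replicate 1 (0.0616) and without replicate 2 of the same label (0.0694). *Stab1* overlaps *Nt5dc2* on the opposite strand, which had 708 to 1523 counts per library beside 1941 to 5628 for *Stab1*. Since the strand setting of the counting is not known, reads of both genes in the shared stretch cannot be told apart.

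The 3 receptors of long-lived resident macrophages did not pass the threshold. *Folr2* (chr7:101839988-101857194) was at 15.1, 19.5 and 10.9 CPM in L1L2-FF and at 23.2, 24.9 and 20.4 CPM in the libraries labelled L1L2-AKO. The groups did not overlap, but the highest L1L2-FF library lay close under the lowest of the other group. With a log2 fold change of 0.59 ± 0.21 the adjusted p was 0.0957, and without L1L2-FF replicate 2 the gene passed the threshold (log2 fold change 0.82, adjusted p = 0.0208). Of the 50-base stretches of *Folr2* transcripts, 52.6% also occur in the antisense transcript *Gm10602*, which had 29 to 93 counts per library against 337 to 786 for *Folr2*, so its count is uncertain. *Lyve1* (chr7:110850607-110863239) was at 28.5, 22.1 and 17.3 CPM and at 25.1, 37.6 and 31.8 CPM. The groups overlapped, with L1L2-FF replicate 1 above the library labelled L1L2-AKO replicate 1. The log2 fold change was 0.48 ± 0.21 (adjusted p = 0.174), and no omission of a single library brought it past the threshold. *Timd4* (chr11:46810800-46844332) had the fewest counts of the members, 55 to 109 per L1L2-FF library and 85 to 129 per library labelled L1L2-AKO. Its levels were 2.65, 3.37 and 1.77 CPM and 3.62, 4.09 and 2.97 CPM. The groups overlapped, and the log2 fold change of 0.45 ± 0.29 had an adjusted p of 0.337. For none of the 3 does the test show that the genotypes were alike.

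Among the secreted products, *Gas6* (chr8:13465374-13494490) was at 30.6, 43.0 and 20.5 CPM in L1L2-FF and at 129, 261 and 294 CPM in the libraries labelled L1L2-AKO. Replicate 1 of the second group stood well below the other two and still far above every L1L2-FF library. The log2 fold change was 2.86 ± 0.37 (adjusted p = 0.00217), a 7.27-fold difference in level, and only 1.03% of all tested genes had a larger log2 fold change. Leaving out single libraries moved it between 2.63 and 3.16, always past the threshold. *Gas6* overlaps *Tmem255b* on the opposite strand, which had 31 to 102 counts per library beside 636 to 8420 for *Gas6*. *F13a1* (chr13:36867178-37050244) was at 78.4, 90.2 and 58.3 CPM and at 204, 183 and 173 CPM. The groups lay far apart, and unlike for *Gas6*, replicate 1 was the highest of the libraries labelled L1L2-AKO. The level was 2.46-fold higher in the second group (adjusted p = 0.00234, SE of the log2 fold change 0.17), and the gene passed the threshold without any single library. *Pf4* (chr5:90772435-90773383) was at 13.3, 16.8 and 10.2 CPM and at 21.2, 30.5 and 21.2 CPM. The library labelled L1L2-AKO replicate 2 was the highest, and the other two lay nearer to the L1L2-FF libraries. Its log2 fold change of 0.85 ± 0.22 (adjusted p = 0.0363) missed the threshold without L1L2-FF replicate 1 (adjusted p = 0.118), without L1L2-FF replicate 3 (0.0790), without the library labelled L1L2-AKO replicate 2 (0.132), without replicate 3 of that label (0.0647), and with library size as the only scaling (0.0599).

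The enzyme gene *Cbr2* (chr11:120729489-120732114) was at 12.5, 12.2 and 6.96 CPM in L1L2-FF and at 21.5, 27.7 and 24.3 CPM in the libraries labelled L1L2-AKO. All libraries of the second group were above those of the first, and L1L2-FF replicate 3 stood apart as the lowest. The log2 fold change was 1.21 ± 0.23 (adjusted p = 0.0109), and without the library labelled L1L2-AKO replicate 2 the adjusted p was 0.0501. Of its 50-base stretches 12.1% also occur in *Gm11771*, to which 0 to 2 counts per library were assigned. Across the 10 genes, leaving out L1L2-FF replicate 1 reduced the number higher from 7 to 4 (*Mrc1*, *F13a1*, *Gas6* and *Cbr2*), and leaving out the library labelled L1L2-AKO replicate 2 also gave 4 (*Mrc1*, *F13a1*, *Gas6* and *Cd163*). Over all tested genes the number higher fell too, from 1455 to 777 in the first omission and to 814 in the second. When the change had to exceed 2-fold, 2 remained, *Mrc1* (adjusted p = 0.0355) and *Gas6* (adjusted p = 0.0130), beside 1.85% of all genes.

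Within L1L2-FF, the libraries differed along the same line for most members. L1L2-FF replicate 3 was the lowest L1L2-FF library for 10 of the 10 genes, and L1L2-FF replicate 2 was the highest for 8, the exceptions being *Lyve1* and *Cbr2*, for which replicate 1 was. The summed level of the 10 was 351, 435 and 250 CPM in L1L2-FF replicates 1, 2 and 3, and the summed pan-macrophage markers were in the same order, at 322, 478 and 250 CPM. In the libraries labelled L1L2-AKO the members had no common order. Replicate 2 was highest for 6 of them, replicate 1 for *Cd163*, *F13a1* and *Stab1*, and replicate 3 for *Gas6* alone. The sums there were 893, 1048 and 993 CPM.

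Compared per length of exon, as CPM divided by the kilobases of exon (RPKM), the order of the members was not the same in the 2 genotypes. In L1L2-FF, *Pf4* was the most abundant at 18.7 RPKM, then came *Gas6* at 12.3, *F13a1* and *Mrc1* at 11.2 each, *Folr2* at 9.78, *Stab1* at 8.11, *Cbr2* at 7.95 and *Lyve1* at 7.75 RPKM. Each of these overlapped its neighbour in the order over the 3 libraries. *Cd163* came next at 3.50 RPKM and did not overlap its neighbour *Lyve1*. Its highest library, at 5.36 RPKM, still lay above the lowest of *Cbr2*, at 5.25 RPKM. *Timd4* was last at 1.20 RPKM, below *Cd163* without overlap. In the libraries labelled L1L2-AKO, *Gas6* at 89.4 RPKM was above all others without overlap. *Mrc1* (40.2), *Pf4* (33.7) and *F13a1* (27.7 RPKM) followed with overlapping neighbours. Then came *Cbr2* at 18.5 RPKM, which overlapped neither of its neighbours in the order, *F13a1* and *Folr2*. Its lowest library, at 16.2 RPKM, was below the highest of *Stab1*, at 16.5 RPKM. *Folr2* (14.8), *Stab1* (14.4), *Lyve1* (10.8) and *Cd163* (9.73 RPKM) followed with overlapping neighbours, and *Timd4* was last at 1.64 RPKM. *Folr2*, in the middle of the L1L2-FF order, thus stood below *Cbr2* in the other genotype. The order depends on the length assigned to each gene, most of all for *F13a1*, which stood at 19.1 and 47.2 RPKM when the longest transcript was used in place of the union of exons.

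To ask whether the members moved with macrophage markers in general, each library was scaled to its summed counts of the 16 pan-macrophage markers, none of which is a member. These markers, among them *Csf1r* (the CSF1 receptor, 64.6 to 152 CPM, log2 fold change 1.24, adjusted p = 0.0155) and *Lyz2* (lysozyme, 71.2 to 151 CPM, 1.08, adjusted p = 0.0164), had higher levels under the L1L2-AKO label in 16 of 16 cases, with a median log2 fold change of 1.60. On the scaled measure the median of all tested genes was -1.52, 87.5% of all tested genes were called lower and 1.67% higher, so a gene that keeps pace with macrophage markers has a value near 0. *Gas6* was higher on this scale (log2 fold change 1.46, adjusted p = 2.98e-04), and was so without any single library. *Mrc1* at 0.43 (adjusted p = 0.243), *Cd163* at 0.11 (0.744), *F13a1* at -0.14 (0.706) and *Cbr2* at -0.22 (0.531) did not pass the threshold. *Pf4* at -0.59 (0.0909) and *Stab1* at -0.60 (0.101) did not either. *Folr2* at -0.83 (0.0183), *Lyve1* at -1.01 (0.00550) and *Timd4* at -0.96 (0.0144) were lower, so their level per macrophage marker count was below that in L1L2-FF. With 3 of 10 members lower beside 87.5% of all genes, the share is below the background, and this fit takes the marker sum as free of error.

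**Figure D2:**
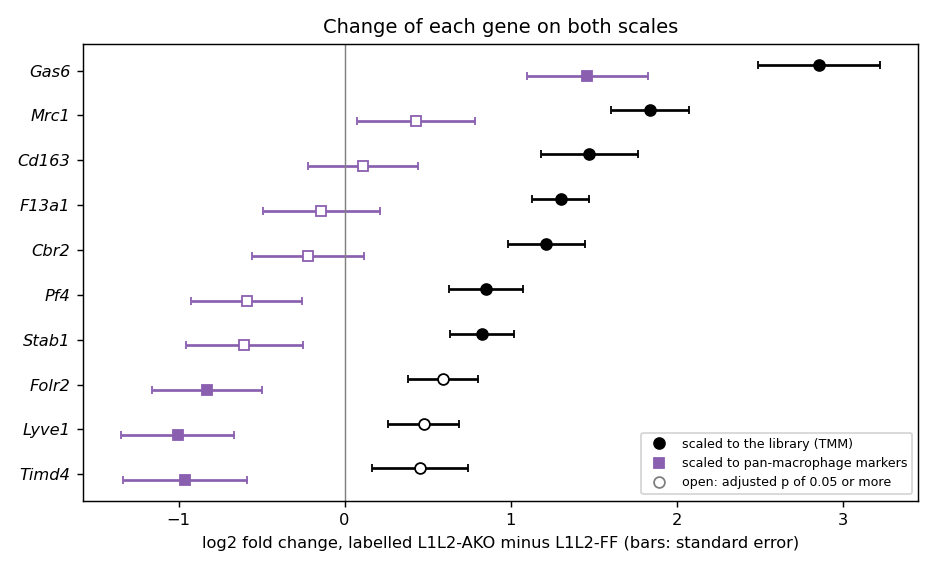
log2 fold change of each gene between libraries labelled L1L2-AKO and L1L2-FF, scaled to the library (black circles) and to the summed pan-macrophage markers (purple squares), with standard errors as bars and open symbols for an adjusted p of 0.05 or more. All 10 values scaled to the library are above 0, from 0.45 to 2.86, while those scaled to the markers run from -1.01 for *Lyve1* to 1.46 for *Gas6*.

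The 3 lower log2 fold changes on this scale stayed below 0 without each single library, from -0.88 to -0.78 for *Folr2*, from -1.22 to -0.77 for *Lyve1* and from -1.02 to -0.87 for *Timd4*, but their calls did not all stay past the threshold. None was left without L1L2-FF replicate 1 (*Folr2* adjusted p = 0.0879, *Lyve1* 0.0915, *Timd4* 0.0625). *Timd4* alone was left without the library labelled L1L2-AKO replicate 1 and *Lyve1* alone without replicate 3 of that label, whereas without L1L2-FF replicate 2 the number was 5, with *Pf4* (0.0104) and *Stab1* (0.00867) added. With *Csf1r*, *Adgre1* and *Cd68* as the only markers, *Lyve1* alone was lower, and *Folr2* (0.0807) and *Timd4* (0.0582) missed the threshold. The SE on this scale was much the same for all members, from 0.33 for *Cd163* to 0.37 for *Timd4*. It was 0.35 for *Mrc1* and 0.34 for *Lyve1*, whose ratios spread unlike each other. The p-values of this fit thus do not follow the spread of each gene's own ratios, which are given here beside them. Per 1000 pan-macrophage counts, *Folr2* had 46.7, 40.7 and 43.5 counts in L1L2-FF and 25.7, 25.3 and 22.7 counts in the other genotype. *Timd4* had 8.22, 7.06 and 7.11 and then 4.01, 4.15 and 3.32 counts. *Lyve1* varied more, with 88.5, 46.1 and 69.2 and then 27.8, 38.1 and 35.6 counts. These 3 genes, *Pf4* (39.2 ± 3.42 to 26.0 ± 4.21) and *Stab1* (243 ± 26.2 to 160 ± 24.3) were lower without overlap, as were 83.8% of all tested genes.

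**Figure D3:**
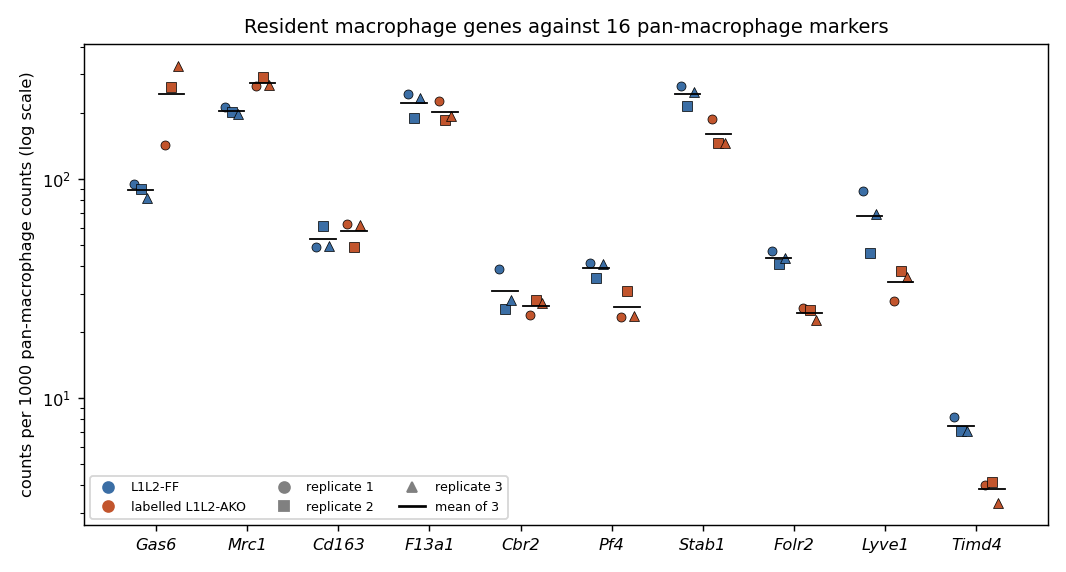
Counts of each gene per 1000 counts of the 16 pan-macrophage markers in the same library, on a log scale, with colours and symbols for genotype and replicate number and lines for the mean of 3 libraries. *Gas6* and *Mrc1* are higher in the libraries labelled L1L2-AKO, *Cd163*, *F13a1* and *Cbr2* overlap, and *Pf4*, *Stab1*, *Folr2*, *Lyve1* and *Timd4* are lower.

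*Mrc1* had 204 ± 8.23 counts per 1000 pan-macrophage counts in L1L2-FF and 275 ± 14.8 in the libraries labelled L1L2-AKO, without overlap, as in 1.60% of all tested genes. *Gas6* went from 89.0 ± 6.36 to 245 ± 94.4, and its 3 values in the second group, 143, 264 and 328, were farther apart than those of any other member. *Cd163* stood at 53.2 ± 6.98 and 57.6 ± 7.71, and the genotypes overlapped. For each of the 7 ratios without overlap the exact permutation test on log2 ratios gave p = 0.1 (two-sided), the smallest it can give with 3 libraries against 3, and for *Cd163*, *F13a1* and *Cbr2* it gave 0.5, 0.3 and 0.5. Set against *Mrc1* itself, *Folr2* stood at 21.4 and 8.94 counts per 100 *Mrc1* counts in the 2 genotypes and *Lyve1* at 33.1 and 12.3, *Cd163* overlapped between genotypes, and *Gas6* stood at 43.5 and 88.9, higher without overlap as were 0.989% of all tested genes. Lower without overlap on that scale were 7 of the other 9 members, and 90.2% of all tested genes.

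Gas6 acts through the TAM receptors, and the list of its receptors and of genes for the uptake of apoptotic cells had 13 tested genes, of which 3 were higher and 0 lower, with a median log2 fold change of 0.47. At an unadjusted p under 0.05 the counts were 4 and 0, and DESeq2 gave 3 and 0. The counts of this list and of those below stand beside 9.28% of all tested genes called higher and 7.18% called lower by edgeR. At an unadjusted p these shares were 15.5% and 15.3%, and by DESeq2 10.5% and 8.56%. While the ligand was 7.27-fold higher, none of its 3 receptors passed the threshold. *Axl* was at 87.0 and 96.1 CPM (log2 fold change 0.14, adjusted p = 0.477), *Mertk* at 23.7 and 23.2 CPM (-0.03, 0.935) and *Tyro3* at 4.45 and 4.74 CPM (0.09, 0.839). *Pros1*, which encodes protein S, the other TAM ligand, was at 72.6 and 109 CPM (0.58, 0.109). The genes that rose were *Mfge8* (another bridge to phosphatidylserine, log2 fold change 1.94, adjusted p = 0.00497), *Rac2* (a GTPase of blood cells, 1.37, 0.00441) and *Elmo1* (an adaptor of engulfment, 0.48, 0.0416). *Mfge8* was at 192, 242 and 151 CPM in L1L2-FF and at 441, 963 and 847 CPM in the libraries labelled L1L2-AKO. Like *Gas6*, it was lowest in replicate 1 of the second group. *Lrp1*, an uptake receptor and the most abundant gene of the list, was at 490 and 678 CPM (0.47, adjusted p = 0.296).

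CD163 takes up haemoglobin for breakdown to iron. Of the 10 tested genes for haemoglobin scavenging and iron handling, 3 were higher and 0 lower, and the median log2 fold change was 0.31. At an unadjusted p under 0.05 they were 6 and 1, DESeq2 called 5 and 0, and without L1L2-FF replicate 1, or without either of the libraries labelled L1L2-AKO replicates 2 and 3, only 1 was higher. *Blvra* (biliverdin reductase A, log2 fold change 0.86, adjusted p = 0.0279), *Slc48a1* (a haem transporter of the lysosome, 0.45, 0.0450) and *Slc11a1* (the phagosomal metal transporter NRAMP1, 1.39, 0.00290) rose. *Hmox1*, the inducible haem oxygenase downstream of CD163, was at 78.1 and 74.2 CPM (-0.07, adjusted p = 0.913), and *Fth1*, ferritin heavy chain, at 902 and 798 CPM (-0.18, 0.521). *Hp*, encoding the haptoglobin that CD163 recognises, was at 1025, 883 and 820 CPM in L1L2-FF and at 659, 5289 and 6918 CPM in the libraries labelled L1L2-AKO. Replicate 1 of that label was below every L1L2-FF library and the other two far above (2.24 ± 0.69, adjusted p = 0.0622).

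CSF1 sustains resident macrophages, and type 2 cytokines such as IL-4 induce *Mrc1* and others of these genes in cultured macrophages. Of the 12 tested genes of this axis 4 were higher and 1 was lower, beside 9.28% and 7.18% of all tested genes, with a median log2 fold change of 0.23. *Csf1* was at 41.9, 62.2 and 39.2 CPM in L1L2-FF and at 152, 245 and 276 CPM in the libraries labelled L1L2-AKO, with replicate 1 again the lowest of that label (log2 fold change 2.23, adjusted p = 0.00153). Its receptor gene *Csf1r* (1.24, 0.0155), the IL-4 receptor gene *Il4ra* (1.04, 0.00380) and *Stat6*, encoding the factor activated by it (0.86, 0.00338), rose too. *Il34*, the other ligand of the CSF1 receptor, was at 6.60 and 2.82 CPM (-1.22, adjusted p = 0.0251), and it missed the threshold without L1L2-FF replicate 1 and without the libraries labelled L1L2-AKO replicate 2 or replicate 3, so that 0 genes were then lower.

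Relatives by sequence or function were set beside the members. Of 16 relatives, 12 were tested, 3 were higher and 1 was lower, with a median log2 fold change of 0.40, and without the library labelled L1L2-AKO replicate 1, 5 were higher. *Mrc2*, the mannose receptor relative that takes up collagen in mesenchymal cells, rose from 28.8 to 147 CPM (2.35, adjusted p = 9.67e-04), beside a log2 fold change of 1.84 for *Mrc1*. *Cd44*, the hyaluronan receptor related to LYVE1, rose from 41.7 to 78.2 CPM (0.91, 0.00433), and *Cxcl12*, a chemokine of the same class as PF4, from 147 to 416 CPM (1.50, 0.0118). *Cbr1*, a carbonyl reductase, was lower (42.9 to 26.3 CPM, -0.70, adjusted p = 0.00636), whereas *Cbr3* (-0.18, 0.813) and *Cbr4* (-0.33, 0.124) did not pass. Nor did *Tgm2*, the tissue transglutaminase related to F13A1 (135 and 190 CPM, 0.50, 0.117), *Stab2* (0.73, 0.410), *Cd163l1* (0.29, 0.830), *Havcr2* (adjusted p = 0.996) or *Ppbp* (0.31, 0.653). *Folr1*, *Havcr1*, *Timd2* and *F13b* were too low to be tested, and *F13b* had no count in any library.

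Other genes named for resident macrophages moved in both directions. Of 24 tested, 9 were higher and 3 lower, with log2 fold changes from -1.78 to 4.24 and a median of 0.54. Without L1L2-FF replicate 1, without L1L2-FF replicate 2, or without the library labelled L1L2-AKO replicate 2, 1 was lower. The most abundant, *Selenop* (a selenium carrier, 855 and 965 CPM, 0.17, adjusted p = 0.638) and *Mgst1* (a glutathione transferase, 624 and 394 CPM, -0.66, 0.0416), are also made by other cells of fat. Named for their level alone, they do not stand for the list. Of 12 lipid-associated macrophage genes 5 were higher and 0 lower, with log2 fold changes from -0.13 to 2.59 (median 0.75). The most abundant were *Ctsb* (cathepsin B, 1593 and 1455 CPM, -0.13, adjusted p = 0.731) and *Fabp5* (a fatty acid carrier, 603 and 775 CPM, 0.36, 0.679). At an unadjusted p they were 7 and 0, by DESeq2 6 and 0, and 1 to 3 were higher without L1L2-FF replicate 1 or 3 or without the libraries labelled L1L2-AKO replicate 2 or 3. Of 12 monocyte and inflammatory genes 4 were higher and 0 lower (median 0.74), among them *Itgam* (the integrin CD11b, log2 fold change 1.69, adjusted p = 5.31e-04) and *Il6* (4.74 and 34.8 CPM, 2.88, 0.00593). At an unadjusted p they were 7 and 0, by DESeq2 5 and 0, and 2 were higher without L1L2-FF replicate 1 or without the libraries labelled L1L2-AKO replicate 2 or 3.

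**Figure D4:**
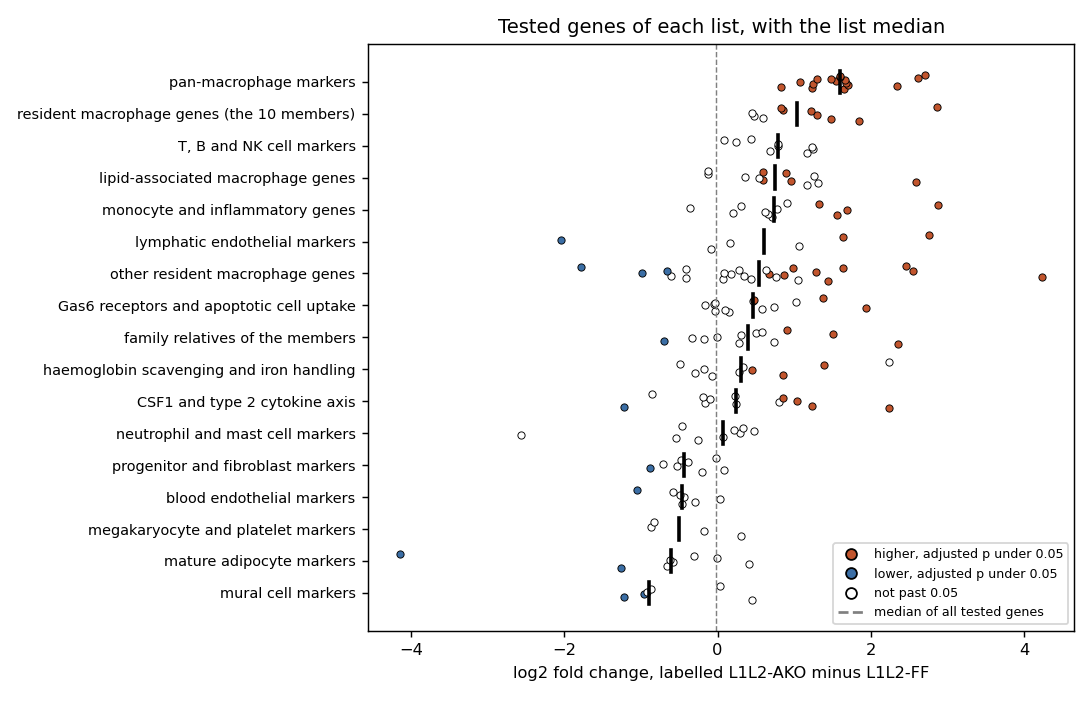
log2 fold change of the tested genes of each list (points, coloured by call) between libraries labelled L1L2-AKO and L1L2-FF, with the median of each list as a black bar and that of all tested genes as a dashed line. The pan-macrophage markers have the highest median, 1.60, followed by the 10 resident macrophage genes at 1.03, and the mural cell markers the lowest, -0.89.

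Markers of other cells that make some of the members were set beside them. *Lyve1* and *Stab1* are genes of lymphatic endothelium, of which 6 of 7 markers were tested, 2 higher and 1 lower, with a sum of 36.7 to 46.4 CPM in L1L2-FF and 56.2 to 61.9 CPM in the libraries labelled L1L2-AKO. The defining factor gene *Prox1* was at 1.32 and 1.25 CPM (-0.08, adjusted p = 0.892), and the chemokine gene *Ccl21a* was at 0 in L1L2-FF replicate 3 and in the library labelled L1L2-AKO replicate 2. The most abundant, *Flt4* (a receptor for VEGF-C), was at 21.8 and 24.3 CPM (0.16, 0.765), and *Sema3d* at 3.38 and 22.8 CPM (2.75, 0.00473). The rise of *Sema3d* was about as large as that of the whole sum, and the log2 fold changes of the 6 ran from -2.05 to 2.75. Only 1 was higher without L1L2-FF replicate 1 or 3 or without the libraries labelled L1L2-AKO replicate 1 or 2, and 0 were lower without replicate 1 or 3 of that label. *Pf4* is a platelet gene, and of 8 megakaryocyte and platelet markers 4 were tested, with 0 higher and 0 lower by edgeR (0 and 1 at an unadjusted p, 0 and 0 by DESeq2). Their sum was 7.09 to 9.59 CPM and 4.92 to 7.39 CPM, *Itga2b* (integrin CD41) being at 3.60 and 3.19 CPM (-0.18, adjusted p = 0.668), *Gp1ba* at 2.48 and 1.36 CPM (-0.86, 0.129) and *Gp6* at 0 in all L1L2-FF libraries. The part of these cells in the levels of *Lyve1*, *Stab1* and *Pf4* was not tested.

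*Gas6* is made by stromal and vascular cells as well. Of 8 progenitor and fibroblast markers 0 were higher and 1 was lower (sum 518 to 779 and 396 to 520 CPM), of 6 mural cell markers 0 and 2 (930 to 1242 and 556 to 828 CPM), and of 7 blood endothelial markers 0 and 1 (1796 to 2411 and 1044 to 2283 CPM). At an unadjusted p the 3 lists had 0 and 4, 1 and 4, and 0 and 1, and by DESeq2 0 and 2, 0 and 4, and 0 and 1. The lower calls of these 3 lists fell to 0 without L1L2-FF replicate 1 and without the library labelled L1L2-AKO replicate 2, and moved between 0 and 4 without other libraries. *Dcn* (decorin, 216 and 132 CPM, -0.72, adjusted p = 0.0578), *Cd34* (194 and 134 CPM, -0.53, 0.129), *Rgs5* (550 and 236 CPM, -1.22, 0.0188), *Pdgfrb* (168 and 230 CPM, 0.45, 0.109), *Cdh5* (751 and 613 CPM, -0.29, 0.532) and *Pecam1* (519 and 376 CPM, -0.47, 0.279) were their most abundant genes. Of the 8 adipocyte markers 0 were higher and 2 lower (0 and 5 at an unadjusted p and by DESeq2), and 4 were lower without L1L2-FF replicate 2 or with library size as the only scaling. The part of any of these cells in the level of *Gas6* was not tested.

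Markers of other blood cells were set beside the members too. Of 9 neutrophil and mast cell markers 0 were higher and 0 lower by edgeR (0 and 2 at an unadjusted p, 0 and 1 by DESeq2), with sums of 75.5 to 96.4 and 70.7 to 94.4 CPM, led by *Kit* (33.3 and 24.1 CPM, adjusted p = 0.106) and *Cpa3* (12.3 and 15.1 CPM, 0.394). Of 9 T, B and NK cell markers 0 were higher and 0 lower (2 and 0 at an unadjusted p, 1 and 0 by DESeq2), with sums of 8.93 to 26.1 and 16.5 to 32.2 CPM. Without L1L2-FF replicate 2, 4 of them were higher, and without the library labelled L1L2-AKO replicate 1, 1 was. The most abundant were *Cd4* (2.49 and 5.92 CPM, adjusted p = 0.0732) and *Cd79a* (2.75 and 3.27 CPM, 0.738).

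The genes whose profile over the 6 libraries was most like the median profile of the members were sought among 9957 genes with an average of at least 3 on the log2 CPM scale. Likeness was the root mean square distance between log2 CPM values centred on their mean, and no test goes with it. The median profile is not that of every member. By the same distance *Stab1* was the nearest member (0.136, rank 16), whereas *Mrc1* ranked 1447 (0.444) and *Gas6* 9466 (0.993). *Timd4* was too low to be included. *Ednrb*, the endothelin receptor B, was the nearest at 0.0387, with 91.6, 110 and 67.3 CPM in L1L2-FF and 178, 185 and 168 CPM in the libraries labelled L1L2-AKO. It is also in the list of other resident macrophage genes. Next were *Gmip* at 0.0879, *Olfm2* at 0.0942, *Myo1f* at 0.0944 and the pan-macrophage marker *Cd68* at 0.0967. Each of the 5 shares with the members the low value of L1L2-FF replicate 3, and their log2 fold changes lay between 0.83 and 1.16.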

How the data were processed

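RNA sequencing was done on floated adipocytes of scWAT in 6 libraries, 3 per genotype, assigned by the submitters' titles. The authors aligned paired-end reads to mm10 and deposited raw counts per gene symbol, as whole numbers without normalization. The submitters' processing notes name HISAT2 2.1.0 and StringTie 1.3.5. The annotation, the counting program and its strand setting are not given in the sources used here. The 10 members and all 16 comparison lists were chosen with earlier results of these data known.

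Counts were tested in R 4.3.3 with edgeR 4.0.16 (TMM factors, filterByExpr with a minimum count of 10 in the smaller genotype and 15 in total, glmQLFit and glmQLFTest, two-sided, Benjamini-Hochberg over 15674 of 37384 genes), on genotype alone. SE is the log2 fold change divided by the root of F. A second fit replaced library sizes with summed pan-macrophage counts. Both were run on simulated data in which libraries of a genotype had the same expected share of macrophage counts. Here the marker counts ran from 7741 to 15448 within L1L2-FF, so the simulation does not show how the second fit behaves on these libraries. DESeq2 1.42.0, other scalings, no filter, a 2-fold threshold, other denominators, a replicate block and the omission of each library were alternatives. Tables and plots used Python 3.11.15, pandas 2.3.3, scipy 1.17.1 and matplotlib 3.10.9. Positions and exon lengths are those of mm10 in GENCODE M21, to which 36888 symbols matched directly and 373 through synonyms, with 123 not found. Promoter sequences are from RefSeq.

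*Csf1r*, *Pros1*, *Stab2*, *Ppbp* and *Slc40a1* are each in 2 lists. Named genes were the members, the 2 most abundant genes of each list, the genes past the threshold in the lists on *Gas6* receptors, haemoglobin and CSF1, tested relatives, *Lats1* and *Lats2*, and the 5 genes most like the members. *Mertk*, *Axl*, *Tyro3*, *Hmox1*, *Prox1*, *Ccl21a*, *Gp6*, *Adgre1*, *Gm10602*, *Gm11771*, *Nt5dc2* and *Tmem255b* were named besides, with values known. Replicates of a genotype differed beyond sampling noise, with a chi-square per degree of freedom of 30.3 to 159, and each was kept as 1 library. With 3 libraries against 3, a permutation test cannot go below p = 0.1.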

Additional observations from a re-analysis of the deposited data

How the results depend on the processing

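All 130 log2 fold changes of the 10 members under the alternatives stayed above 0, 113 kept their side of the threshold, 15 lost it and 2 gained it. The number of members higher, 7, was 7 with DESeq2 size factors, upper-quartile factors, no filter and the DESeq2 Wald test, 6 with library size alone, and 2 with a 2-fold threshold, and 4 to 8 without single libraries (4 without L1L2-FF replicate 1 and without L1L2-AKO replicate 2). No member was lower in any of these. Of all genes, 1455 were higher and 1125 lower. With a 2-fold threshold 290 and 103 were, and without single libraries 777 to 1552 and 467 to 1293. Relative to the pan-macrophage markers 1 member was higher throughout, and the number lower, 3, was 1 with *Csf1r*, *Adgre1* and *Cd68* as denominator and 0 to 5 without single libraries. The cause of these shifts was not tested.

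Libraries with the same replicate number had deviations correlated at 0.19, 0.26 and -0.05 across genes, so the numbers were not taken as pairs, and not every library correlated best with its own number. With the replicate block 8 members were higher, *Folr2* being added (adjusted p = 0.0415), and 1408 genes were higher and 1106 lower. Relative to the markers the block gave 1 higher and 3 lower.

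Low counts limit *Timd4*, and 3 libraries per genotype limit every call. Strand and cell numbers are unknown.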
